A study of Mus musculus with 38 samples.

Results

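The response of the mouse lung to the lowest of 3 doses of dibenz(a,h)anthracene (DBahA) was described across all genes on the array, using 10 of the 38 arrays of the series: 5 lungs of dose group D1 against 5 lungs of the vehicle group D0, chosen by the sample titles. DBahA is a polycyclic aromatic hydrocarbon whose metabolites bind DNA. All mice were male MutaMouse, a transgenic strain whose cells carry a bacterial lacZ reporter for scoring mutations, about 10 weeks old. Groups were gavaged daily for 28 days with olive oil that carried DBahA at 0 (D0) or 6.25 (D1) mg/kg-bw/day, and tissue was taken 72 h after the final dose. Each lung was from a separate mouse. Each array compared Cy5-labelled RNA from a random piece of 1 lung with a Cy3-labelled reference pool of cell line RNA, without dye swap, and all values below are log2(Cy5/Cy3) per probe. Lungs of D2 (12.5 mg, 4 mice) and D3 (25 mg, 5 mice) and forestomach of the same D0 and D1 mice were used for comparison.

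When DNA is damaged, the transcription factor p53 is stabilised and switches on genes that halt the cell cycle, aid repair or start cell death. Hydrocarbons of this kind also bind the aryl hydrocarbon receptor (AhR), which induces the cytochrome P450 enzymes that oxidise them. Cell division has a gene programme of its own, transcribed from late S phase to mitosis and low in resting tissue such as the adult lung.

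The tissue label matched its markers. Surfactant protein genes of type 2 alveolar cells were high in every lung, with Sftpc between 6.69 and 7.40 in D0 and between 6.40 and 7.23 in D1, while it lay between -0.15 and 0.71 in forestomach. Ager of type 1 cells ranged from 4.76 to 5.45 over the 10 lungs. Krt13, a keratin of the forestomach epithelium, was at -0.96 or lower in all of them. The club cell marker Scgb1a1 set the tissues less far apart. It lay between 6.675 and 7.705 in D0 lungs, between 6.603 and 7.712 in D1 lungs and between 3.581 and 5.973 in forestomach. Between 41.5% and 61.1% of probes were well above background in Cy5 on these arrays, no spot was saturated, and correlations between lungs of a group ran from 0.927 to 0.960. As whole tissue was measured, fewer cells of a type and less RNA per cell cannot be told apart. Precision is limited by how many arrays each mean rests on.

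The lowest dose raised far more genes than it lowered. Of 55681 probes, 78 (0.14%) were called by limma, that is, had an adjusted p of at most 0.05 and changed at least 1.5-fold, 77 of them upwards (0.138%) and 1 downwards (0.0018%). They named 58 genes, with 14 probes left without a symbol. The 77 higher probes rose by 0.60 to 2.74 on the log2 scale (median 0.86), and each was above the D0 mean in all 5 D1 mice. For 75 of the 78 the ranges of the groups did not overlap, which held for 1.94% of all genes by their brightest probe. The 78 were chosen by the test on these same lungs. Their lack of overlap and their agreement over mice and slides follow in part from that choice. Of the higher genes, 12 were targets or regulators of p53, 26 act in chromosome segregation, mitosis or cytokinesis and 3 in DNA synthesis and its control, a grouping made after the genes were known. On leaving out each lung in turn 48 of the 78 were called every time, and the loss without a single lung ran from 11 (D0 mouse 3 or D1 mouse 10) to 21 (D0 mouse 5). Slides held lungs of both groups: 76 of the 77 were higher in D1 within all 4 such slides, and 130 probes passed with slide as a block. With each array centred on its median in place of the intensity-dependent loess normalization, the median log2 fold change over genes above background moved from 0.03 to 0.34, all 77 stayed above 0, and limma called 0 probes (smallest adjusted p 0.0656, 1200 probes at an unadjusted p under 0.05).

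**Figure D1:**
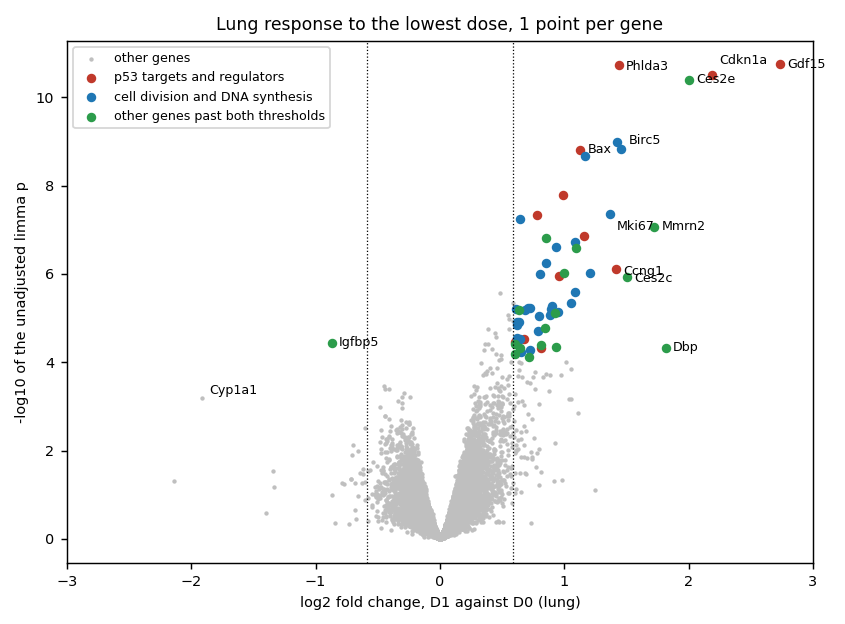
Each point is a gene, placed by its log2 fold change in lung at D1 against D0 and by -log10 of its unadjusted limma p, with the called probe of largest change for the coloured genes and the brightest probe for the grey ones; dotted lines mark a fold change of 1.5. Genes past both thresholds lie to the right apart from Igfbp5, and genes of p53 and of cell division are mixed among them.

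The largest changes, at Gdf15 and Cdkn1a, were those of p53 targets. Cdkn1a encodes p21, the inhibitor of cyclin-dependent kinases through which p53 halts the cycle. Its level in D0 mice 1 to 5 was -0.73, -1.27, -0.82, -1.25 and -0.91, and in D1 mice 6 to 10 it was 1.504, 1.02, 0.88, 1.47 and 1.09. Every treated lung lay above every control by more than either group's spread. The mean rose from -0.996 ± 0.25 to 1.19 ± 0.28 (SD, n = 5 each), a log2 fold change of 2.19 ± 0.17 (SE) or 4.56-fold (limma adjusted p = 4.24e-07). The other Cdkn1a probe, well above background in 1 of 5 D0 and 5 of 5 D1 lungs, changed by 2.07.

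RefSeq (GRCm38.p6) gives Cdkn1a 2 promoters. A stretch of the upstream one is shown because 2 half-site cores of a p53 element, searched as CATG, 6 bases of any kind and CATG again on both strands, are found in it. The match, in capitals, ends 35 bases before that start, and the promoter of the other start, chr17:29093519-29093818, does not hold it.
Cdkn1a, chr17:29090905-29090964, plus strand: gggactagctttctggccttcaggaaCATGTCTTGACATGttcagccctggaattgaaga
Of the 57 genes called higher, 48 matched the promoter table, and Cdkn1a alone among them (2.08%) held this string, against 0.833% of all 27025 genes. Other planned strings were GACATG, in 8.33% of the 48 and 11.6% of all genes, and GGGCATG, in 8.33% and 4.36%. CACGTG was in 12.5% and 8.09%, and TTATGTAA in 0.0% and 1.11%. The search covered 250 bases before and 50 after each start, a gene with several starts was counted when any of them matched, and sites elsewhere were not read.

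Gdf15, a secreted stress hormone of the TGF-beta family, had the largest change. It was -2.13, -2.39, -1.84, -1.66 and -1.95 in the D0 lungs and 1.30, 0.71, 0.14, 1.10 and 0.46 in the D1 lungs. The groups were far apart although the treated lungs spread over more than 1 log2 unit. The log2 fold change was 2.74 ± 0.21 or 6.66-fold (adjusted p = 4.24e-07).

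Phlda3, an inhibitor of Akt signalling, varied little within each group. D0 lungs lay at 0.16, 0.00, 0.18, 0.07 and 0.06 and D1 lungs at 1.66, 1.45, 1.35, 1.75 and 1.46. Its SD was 0.07 in controls and 0.17 in treated lungs, against a rise of 1.44 ± 0.11 (adjusted p = 4.24e-07). Ccng1, cyclin G1, which regulates the p53 inhibitor Mdm2, rose by 1.42 ± 0.20 (adjusted p = 0.0016) and its 5 treated lungs agreed closely, from 0.62 to 0.81.

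Genes of p53-dependent cell death rose too. Bax, which permeabilises the outer mitochondrial membrane, went from -0.63 ± 0.15 to 0.50 ± 0.23 (log2 fold change 1.13 ± 0.11, adjusted p = 1.06e-05). The apoptosis-enhancing nuclease Aen rose by 1.16 at its strongest probe and Trp53inp1, a cofactor of p53 in apoptosis, by 0.99, from a D0 range of 0.55 to 0.70 to a D1 range of 1.35 to 1.75. A second, dimmer Trp53inp1 probe changed by 0.56 and fell short of the fold threshold. Bbc3, which encodes the BH3-only protein Puma, changed by 0.48 (adjusted p = 0.00425), under the fold threshold but without overlap between the groups. Zmat3, an RNA-binding target of p53, rose by 0.81 (adjusted p = 0.0291). Its adjusted p reached 0.123 at most on leaving out 1 lung, above 0.05 without D0 mouse 2, 3, 4 or 5 or D1 mouse 6 or 7.

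Among metabolic targets, Ephx1, microsomal epoxide hydrolase, which turns hydrocarbon epoxides into diols, rose by 0.78 ± 0.09 and 0.72 ± 0.11 at its probes (adjusted p = 0.000187 and 0.00423). Dglucy, D-glutamate cyclase, rose by 0.96. The ribosomal protein paralogue Rps27l and the thiamine transporter Slc19a2 were called at 0.60 and 0.67, and with Zmat3 they were the p53 genes that lost the call in some fits without 1 lung. Mdm2, the main negative regulator of p53, was higher in all D1 lungs (0.35 to 0.86) than in all D0 lungs (0.04 to 0.26), with a log2 fold change of 0.48 that missed the test (adjusted p = 0.137).

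Only some genes of each p53 list moved. Of the genes measured by their brightest probe, 0.275% of all 20018 were called higher and 0.005% lower. Called higher were 2 of 10 targets of cell cycle arrest (median log2 fold change 0.32), 4 of 14 of cell death (0.41), 3 of 11 of metabolism and stress (0.09), 1 of 8 repair genes induced by p53 (0.17) and 1 of 7 feedback genes (0.13), and none was called lower. The median over all genes was 0.01. The p53 pathway was of interest to the study and the lists were written with results of these data known, so their direction is not independent evidence. Plk2, a kinase induced by p53, was not called (0.56, adjusted p = 0.205), nor were Mdm4 and Ppm1d.

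No gene was called in the lists of DNA repair genes outside those targets. As 0.28% of all genes were called, lists of this size may hold none. None of 14 nucleotide excision repair genes, which remove bulky adducts, was called, and their log2 fold changes lay between -0.23 and 0.21 (median 0.06). Of 16 genes of recombination, crosslink and mismatch repair 0 were called and 12 were above 0, from -0.13 to 0.50 (median 0.06). Of 12 genes of base excision and end joining 0 were called and 5 were above 0, from -0.18 to 0.13 (median -0.02).

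**Figure D2:**
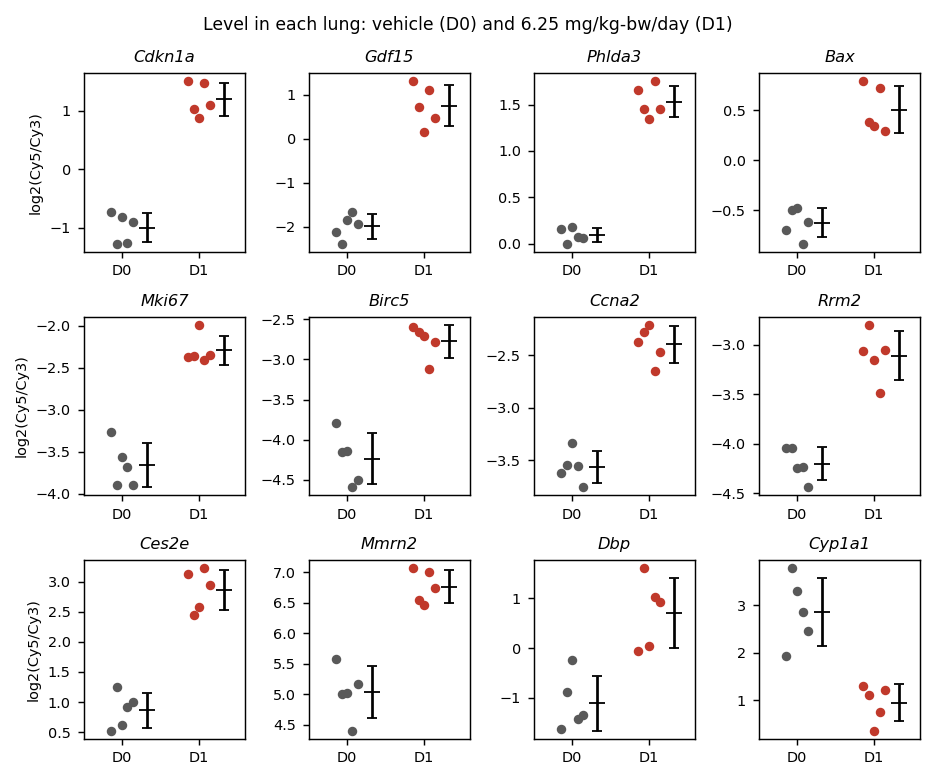
Level of 12 genes in each lung as log2(Cy5/Cy3), with 5 D0 mice in grey and 5 D1 mice in red; bars give the mean and SD, and each panel has its own axis. The groups do not overlap for any of the 12, and Cyp1a1 is the gene that lies lower at D1.

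The larger group of called genes belonged to cell division. Mki67, which encodes the proliferation antigen Ki-67, was low in D0 lungs at -3.26, -3.89, -3.56, -3.68 and -3.89 and lay at -2.37, -2.36, -1.99, -2.40 and -2.35 in D1. The lowest treated lung stood above the highest control. Its probes rose by 1.37 ± 0.16 and 1.34 ± 0.14 (2.58-fold and 2.54-fold, adjusted p = 0.000184 and 3.13e-05).

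Birc5, survivin, a subunit of the chromosomal passenger complex, was at -3.79, -4.15, -4.14, -4.59 and -4.51 in D0 and at -2.59, -2.66, -2.71, -3.12 and -2.79 in D1. It rose by 1.46 ± 0.14 (adjusted p = 1.06e-05), while 2 other Birc5 probes gave 0.49 and 0.46 and were not called. Spc25 of the outer kinetochore rose by 1.43 ± 0.14 and Ccna2, cyclin A2, by 1.17 ± 0.12. For Ccna2 the D0 lungs spanned -3.75 to -3.33 and the D1 lungs -2.65 to -2.21.

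The other members covered mitosis from start to end, and 18 of the 26 division genes were called in every fit without 1 lung, the exceptions being Aurka, Ccnb2, Cdca5, Fbxo5, Kif20a, Ncapd2, Racgap1 and Stmn1. Condensin was represented by Ncaph (1.21) and Ncapd2 (0.62), kinetochores by Cenpe (0.89), the spindle by Tacc3 (0.72), Nusap1 (0.95) and Aurka (0.62), and the anaphase-promoting complex by its activator Cdc20 (0.89), its inhibitor Fbxo5 (0.64) and the ubiquitin-conjugating enzyme Ube2c (0.81). Cytokinesis genes were Prc1 (0.93), Kif20a (0.79), Racgap1 (0.72) and Anln (0.71). Several were faint: the Ckap2 probe (1.05) was well above background in 1 of 5 D0 lungs and the Nusap1 and Pbk probes in 3 of 5, all of them in 5 of 5 D1 lungs. Ccnb2, cyclin B2, changed by 0.65 (adjusted p = 0.0328) and was above 0.05 without D0 mouse 2, 4 or 5 or D1 mouse 6, 7, 8 or 10, where it reached 0.139.

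Of DNA synthesis genes, Rrm2, a subunit of the ribonucleotide reductase that supplies deoxynucleotides, rose by 1.09 ± 0.14 (adjusted p = 0.000529), from a D0 range of -4.44 to -4.04 to a D1 range of -3.49 to -2.80. E2f7, a repressor of S phase genes and itself induced by p53, rose by 0.68 at the called probe, and a second probe gave 0.02. Uhrf1, which maintains DNA methylation at replication forks, rose by 0.64. The helicase subunit Mcm3 changed by 0.45 (adjusted p = 0.036), under the fold threshold.

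In the list of 18 proliferation genes, 6 were called higher (Mki67, Ccna2, Ccnb2, Birc5, Cdc20 and Rrm2), 10 had no overlap between the groups, against 1.51% of all genes higher without overlap, and the median was 0.50. Averaged over its members and set to the D0 mean, the list lay between -0.15 and 0.16 in D0 lungs and between 0.44 and 0.70 in D1 lungs. Cdk1 (0.64, adjusted p = 0.0702), Ccnb1 (0.54, adjusted p = 0.0923) and Top2a (0.50) were not called, and Aurkb (-0.21) and Tyms (-0.06) were below 0. Of 10 further replication genes 0 were called, with a median of 0.26, and Cdt1 and Mcm3 were free of overlap. Marker lists of white blood cells overlapped between the groups in the same lungs. The list score ran from -0.32 to 0.32 in D0 and from -0.32 to 0.19 in D1 for T and NK cells, and from -0.40 to 0.25 and from -0.27 to 0.33 for B lymphocytes and plasma cells. For monocytes and neutrophils it ran from -0.21 to 0.18 in D0, while D1 mice 6, 7 and 10 lay above every control at 0.43, 0.41 and 0.38 and D1 mice 8 and 9 at -0.15 and -0.11. Of 7 such markers 6 were above 0 and 0 were called, and their part in the result was not tested. Which cells carried the division genes was not measured.

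Short stretches upstream of division genes are shown because many share a string. Genes transcribed in late cell cycle phases often carry the cell cycle genes homology region near their start, here searched as TTTGAA on both strands, a motif added after the called genes were seen. It was found in the promoters of 15 of the 20 mitotic genes that matched the table (75.0%) and of 20.2% of all genes. These shares count 250 bases before and 50 after each start. Some of the 15 genes held the string only across or after the start, not upstream of it. Its share was 30.0% in the p53 genes. TTTAAA, likewise added later, was in 20.0% of the mitotic genes and 14.9% of all. CCAAT was found in 14 of the 20 (70.0%) and in 41.1% of all. It was also in 70.0% of the 10 p53 genes that matched and in 60.4% of the 48 called genes. GCGTG, the core of the AhR element, was found in 75.0% of the mitotic genes and 35.2% of all genes. None of these strings contains another. A match is a description of the letters only. The stretches below are 60 bases each from GRCm38.p6, read 5′ to 3′ on the gene's strand, with TTTGAA or its reverse complement in capitals.
Mki67, chr7:135716452-135716511, minus strand: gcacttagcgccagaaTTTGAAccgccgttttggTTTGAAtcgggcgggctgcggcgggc
Cdc20, chr4:118437344-118437403, minus strand: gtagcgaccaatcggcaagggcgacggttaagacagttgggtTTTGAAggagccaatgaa
Prc1, chr7:80294412-80294471, plus strand: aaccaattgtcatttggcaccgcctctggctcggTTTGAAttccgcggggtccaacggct
Ube2c, chr2:164769866-164769925, plus strand: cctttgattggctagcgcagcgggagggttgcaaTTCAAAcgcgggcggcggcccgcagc
Cks1b, chr3:89418292-89418351, minus strand: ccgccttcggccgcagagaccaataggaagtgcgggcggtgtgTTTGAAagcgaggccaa
Cdca5, chr19:6085037-6085096, plus strand: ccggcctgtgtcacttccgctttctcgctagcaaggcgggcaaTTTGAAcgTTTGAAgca
Ccnb2, chr9:70421696-70421755, minus strand: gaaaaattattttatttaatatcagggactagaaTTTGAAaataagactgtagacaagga
In Cdc20, Prc1, Ube2c, Cks1b and Cdca5 a match ended no more than 25 bases before the start, and in Mki67 and Ccnb2 the nearest ended 93 and 162 bases before it.

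**Figure D3:**
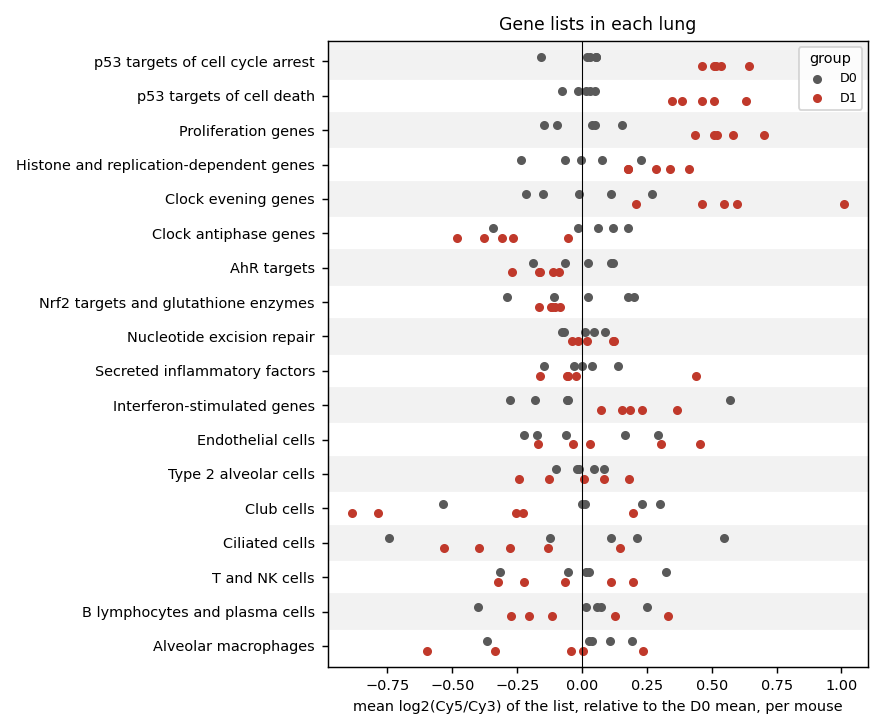
Mean log2(Cy5/Cy3) of the members of 18 gene lists in each lung, relative to the D0 mean, with D0 mice in grey and D1 mice in red. The p53 and proliferation lists separate the groups, and the marker lists of cell types overlap.

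Beyond p53 and cell division, carboxylesterases of the Ces2 family, which hydrolyse ester drugs and lipids, were among the largest changes. Ces2e was at 0.53, 1.24, 0.62, 0.93 and 0.99 in D0 and at 3.12, 2.45, 2.59, 3.22 and 2.95 in D1. No treated lung came near the controls. It rose by 2.00 ± 0.16 or 4.01-fold (adjusted p = 4.4e-07). Ces2c was at 0.51, 0.71, 0.54, 0.37 and 0.52 in D0 and at 2.58, 2.21, 1.43, 1.88 and 2.06 in D1, a rise of 1.504 ± 0.22 (adjusted p = 0.002). Other probes of these genes were not called, at 0.27 for Ces2e (well above background in 0 of 5 D0 lungs) and at 0.77 and -0.03 for Ces2c. The family is of similar sequence, so its probes may share signal. No other member of the list of 13 P450s and esterases was called, and its median was -0.04.

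Mmrn2, multimerin 2, an extracellular matrix protein of endothelial cells that binds VEGF, was abundant relative to the reference. D0 lungs lay at 5.58, 5.00, 5.02, 4.40 and 5.17 and D1 lungs at 7.06, 6.54, 6.45, 7.00 and 6.74. The ranges did not meet, and the rise was 1.72 ± 0.21 or 3.30-fold (adjusted p = 0.000296). It was the sole gene called of 16 endothelial markers, whose median was 0.05 and whose score ran from -0.22 to 0.29 in D0 and from -0.17 to 0.46 in D1. Pecam1 gave 0.47, Cldn5 0.01, Kdr -0.24 and Esm1 -0.66 (adjusted p = 0.582).

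Ramp3, a co-receptor for adrenomedullin in vessels, rose by 0.92 ± 0.16 (adjusted p = 0.00839). Dhh, the ligand Desert hedgehog, rose by 0.93 (adjusted p = 0.029), with D1 lungs between 2.65 and 2.90 and D0 lungs between 1.45 and 2.40. The adjusted p of Dhh was above 0.05 without D0 mouse 3, 4 or 5 or D1 mouse 6, 7, 9 or 10 and reached 0.113. Pkn3, a protein kinase of the PKN family that acts downstream of PI 3-kinase, rose by 1.09 ± 0.15 (adjusted p = 0.000646), and Thyn1, thymocyte nuclear protein 1, by 1.00 ± 0.14. Smaller rises, between 0.60 and 0.86, passed for the proteoglycan serglycin (Srgn), the pseudokinase Trib2, Tnfaip8l1, Exoc4, Tulp4, Ccdc184, Sac3d1 and Commd3, of which Tnfaip8l1 was called in every fit without 1 lung.

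Some called probes had only a genome interval as a name, given by the array in mm9. An interval on the reverse strand, chr17:29183003-29217681, rose at both probes, by 1.03 ± 0.11 (adjusted p = 7.37e-05) and 0.90. On the forward strand, chr1:163508244-163586072 rose by 1.01 and 0.71, and chr1:163528200-163528398 inside it by 0.61. The interval chr9:14460976-14488051 rose by 0.66 and 0.61, and chr17:34018371-34019394 by 0.61. What is transcribed there was not identified.

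Dbp, a clock output gene that follows time of day, was the clock gene called. Its stronger probe was at -1.62, -0.88, -0.24, -1.43 and -1.35 in D0 lungs and at -0.06, 1.61, 0.04, 1.03 and 0.93 in D1 lungs. The groups met closely, and within the slide of D0 mouse 3 and D1 mouse 8 the difference was 0.28. The rise was 1.82 ± 0.35 (adjusted p = 0.029), and its adjusted p was above 0.05 without D0 mouse 1, 2, 4 or 5 or D1 mouse 7, 9 or 10, at most 0.119. Of 10 evening genes 1 was called, all 10 were above 0 and the median was 0.46. Nr1d2 (0.88, adjusted p = 0.14) and Per3 (0.48, adjusted p = 0.20) had groups apart without passing, and the antiphase gene Arntl gave -0.71 (adjusted p = 0.608). The hour of sampling of each mouse was not used here, and its part in the result was not tested.

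Igfbp5, a secreted binding protein of insulin-like growth factors, was the only probe called lower. It was at 4.04, 3.21, 2.88, 3.23 and 3.21 in D0 and at 2.77, 2.46, 2.17, 2.33 and 2.48 in D1. All treated lungs were below all controls, D0 mouse 1 being the highest. The log2 fold change was -0.87 ± 0.17 (adjusted p = 0.025), and it lost the call without D0 mouse 2, 4 or 5 or D1 mouse 7, 8, 9 or 10, with an adjusted p of at most 0.0854.

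Cyp1a1, the P450 most inducible through AhR, lay lower at D1. The D0 values were 1.93, 3.77, 3.29, 2.86 and 2.45 and the D1 values 1.31, 1.11, 0.36, 0.75 and 1.21. The groups did not overlap, as for 0.43% of all genes in this direction, yet the spread within D0 was wide (SD 0.71) and the change of -1.91 ± 0.48 was not called (adjusted p = 0.172). With slide as a block the adjusted p was 0.0135. Cyp1b1 was 0.37 higher (adjusted p = 0.668). Cyp1a2 was not well above background in any of the 10 lungs. Ahrr, the AhR repressor, was 0.37 higher at D1 without being called (adjusted p = 0.166). It was well above background in 0 of 5 D0 and 5 of 5 D1 lungs. Of 9 AhR targets 0 were called and the median was 0.03. Of 14 Nrf2 targets and glutathione enzymes 0 were called, with a median of -0.14 (0.28 with median centring) and 2 above 0. Median centring put the median over genes above background at 0.34.

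Other lower genes had small changes. The transcript XM_489019 changed by -0.51 (adjusted p = 0.0333), short of the fold threshold, the transcription factor Cebpb by -0.44 (adjusted p = 0.134) and the RNA-binding protein Msi2 by -0.41 (adjusted p = 0.131). With median centring Cebpb (0.01) and Msi2 (0.00) were at 0, while the median over genes above background was 0.34.

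No inflammatory or stress list had a called gene. As 0.28% of all genes were called, lists of this size may hold none whatever their direction. The medians were 0.01 over 15 secreted inflammatory factors, 0.18 over 11 interferon-stimulated genes, -0.00188 over 12 genes of the unfolded protein response and -0.22 over 7 heat shock genes, the last of which was 0.24 with median centring. Nor was any gene called in the lists of glucocorticoid, immediate early, hypoxia, TGF-beta, Wnt, MHC class II, lipid synthesis, respiration and collagen genes, whose medians lay between -0.11 and 0.14. Of the 11 interferon-stimulated genes 9 were above 0. Their list score ran from 0.07 to 0.37 in D1. In D0 it was 0.57 in mouse 1 and -0.05 or lower in the other lungs. Apart from Mmrn2, 0 genes were called in the 15 lists of cell type markers. All 7 club cell markers measured were below 0 (median -0.28, Scgb3a1 -1.33), as were 10 of 12 ciliated cell markers (median -0.24), with list scores that overlapped between the groups and medians of 0.10 and 0.03 under median centring. Under that centring the median over genes above background was 0.34.

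The comparison with higher doses asked how much of the lung response was already present at D1. No probe differed between D2 and D1 in limma, and 1771 were under an unadjusted p of 0.05. Between D3 and D1 the count was likewise 0 with 2448 at an unadjusted p under 0.05, while 10 passed with slide as a block, 6 with scan day as a block and 2 with an intensity trend and robust variances, 5, 3 and 1 of them higher at D3. The smallest adjusted p was 0.0902, for Treml1 (-0.83) and the transcript XM_001475752 (0.81). Doses D1, D2 and D3 are set against the same D0 lungs, so their values are given side by side.

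For the 12 p53 genes median log2 fold changes of the 3 doses, in rising order and each against D0, were 1.06, 1.33 and 1.47. For the 26 division genes they were 0.83, 0.85 and 0.82. Phlda3 gave 1.44, 1.84 and 2.04, and Cdkn1a 2.19, 2.73 and 2.93. Mki67 gave 1.37, 1.39 and 1.24, and Prc1 0.93, 0.84 and 0.79. The difference between D3 and D1 was 0.60 for Phlda3 (95% interval 0.37 to 0.83, adjusted p = 0.277) and -0.12 for Mki67 (-0.46 to 0.21). Members were chosen on D1 against D0, which shares the D1 lungs with this difference, so it is a description. In the same order Igfbp5 gave -0.87, -0.41 and -0.52, and Cyp1a1 -1.91, -1.63 and -0.73.

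**Figure D4:**
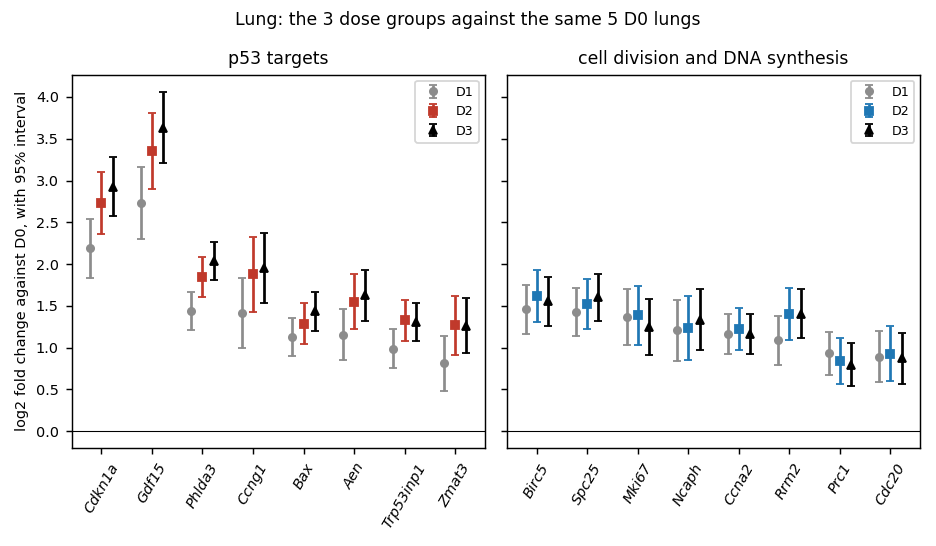
Log2 fold change in lung at D1, D2 and D3 against the same D0 lungs for 8 p53 genes (left) and 8 genes of cell division and DNA synthesis (right); bars are 95% intervals. Phlda3 goes from 1.44 at D1 to 2.04 at D3, and Mki67 is at 1.37 and 1.24.

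The forestomach of the same mice, the site of contact after gavage, showed whether the response was shared. The difference between the tissues in their change from D0 to D1 was called for 18 of 55681 probes (0.0323%), all greater in lung, and for 13 genes by their brightest probe (0.0649%). With the mouse as a block it was called for 43 (fixed) or 44 (random), and with slide as a block for 48. Fewer were called with only the groups compared (9) and without D0 lung mouse 4 (12), and with median centring limma called 0 (smallest adjusted p 0.0965, 335 probes at an unadjusted p under 0.05). Without D0 forestomach mouse 1 the count was 36. Gdf15 changed by 2.74 in lung and -0.08 in forestomach, a difference of 2.81 (adjusted p = 0.000905). Cdkn1a changed by 2.19 and 0.02 (difference 2.17, adjusted p = 5.47e-07) and Mmrn2 by 1.72 and -0.01 (difference 1.73, adjusted p = 0.0466).

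Most of the other genes called for this difference were of cell division: Mki67, Birc5, Ccna2, Spc25, Ncaph, Prc1, Ncapd2 and Tacc3, with differences between 0.95 and 1.90. In forestomach the 26 division genes had a median of -0.21 and the 12 p53 genes of 0.05. Both sets were chosen on the change in lung. Smaller values in forestomach follow in part from that choice, so these medians are a description. Ces2e and Ces2c differed by 1.53 and 1.89 without being called (adjusted p = 0.201 and 1). Dbp rose in lung by 1.82 and gave 1.17 in forestomach, and the difference of 0.65 was not called. Bax (0.39) and Ccng1 (0.46) were above 0 in forestomach, and their differences of 0.74 and 0.95 were not called (adjusted p = 0.253 and 0.932).

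**Figure D5:**
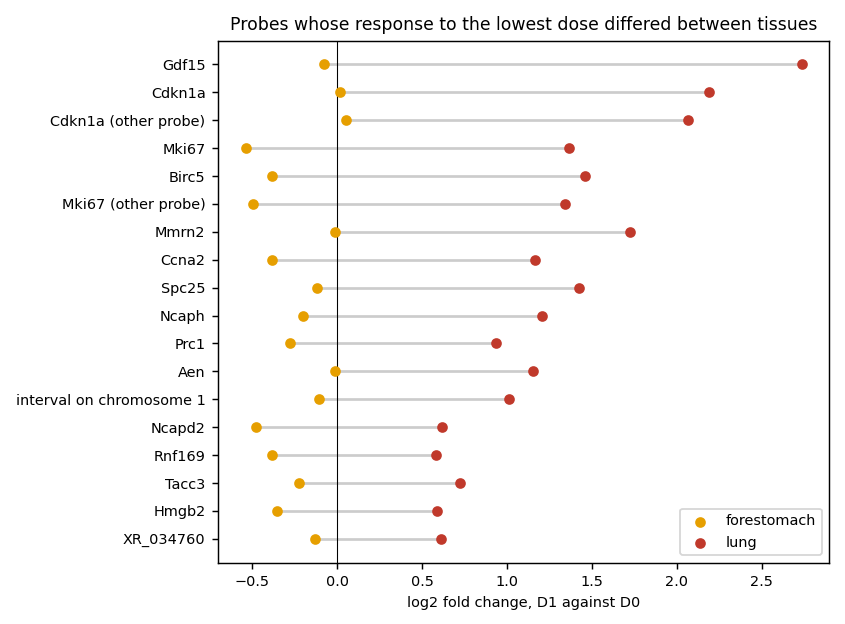
Log2 fold change at D1 against D0 in lung (red) and forestomach (orange) for the 18 probes whose response differed between the tissues; the line joins the values of a probe. All lung values are above 0.58 and forestomach values lie near or below 0.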

How the data were processed

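The deposited scanner files hold median pixel intensity per spot and channel, which the authors extracted in Agilent's Feature Extraction software (10.7.3.1), neither background-subtracted nor normalized. They also hold a log10 Cy5/Cy3 ratio, background-subtracted and dye-normalized per the file headers. A further deposited matrix of log2 ratios states no scale. Its columns followed the values computed here with slopes of 0.995 to 0.998 and correlations of 0.998 to 0.999 and medians from -0.03 to -0.02, and it served as an alternative. As in the methods of the study, median intensities without background correction were loess-normalized within arrays. Control spots (3671 of 62976) and outlier spots were left out (113 probe values empty in the 10 lungs) and spots averaged to 55681 probes. RefSeq (GRCm38.p6) named 26413 probes, 20018 genes; intervals are mm9.

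All 19 lung arrays entered 1 fit with a mean per dose group (limma 3.58.1, R 4.3.3, data.table in version 1.17.8), in place of MAANOVA. Probes were called at a Benjamini-Hochberg adjusted p of at most 0.05 over all probes and a fold change of at least 1.5. The difference from forestomach was fitted over all arrays, with the 2 arrays of forestomach mouse 18 averaged. Lung and forestomach of a mouse number come from 1 animal per the labels; their deviations correlated by 0.0753 (mouse 1) to 0.236 (mouse 2). On simulated data of D1 against D0, over the same 55681 probes, 64% of changes of 0.6 and 96% of changes of 1 (log2) were recovered, with 6 false calls. Noise was drawn independently for each probe and array, without slide or scan effects and without a normalization step. The shares therefore do not cover losses from those sources.

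The members and gene lists were chosen with earlier results of these data known. Genes named were the 30 largest changes, all lower calls and the 8 smallest p among lower genes, called list members with up to 4 more of smallest p, the leading differences between doses and tissues, and Cyp1a1, Cyp1b1, Ahrr and Cyp1a2. Others are listed because they were called. A few further list members, among them Cldn5 and Tyms, were named beside this rule. For lists the brightest probe spoke for a gene. Fisher-type or rotation tests of lists were not run.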

Additional observations from a re-analysis of the deposited data

Results flagged for a closer look

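List scores and levels of some genes were searched for a lung far from the other 4 of its group, in 126 groups of 5 values. Each gene was taken by its brightest probe, and its other probes were not searched. Chance alone sets apart about 5% of such groups, and 4 of the 126 were set apart. Set apart were D0 mouse 2 for the p53 targets of cell cycle arrest (-0.157), D1 mouse 7 for secreted inflammatory factors (0.439), D0 mouse 1 for interferon-stimulated genes (0.572) and D1 mouse 9 for heart muscle genes (1.35).

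The response to the lowest dose differed between lung and forestomach by the test of the difference for 18 probes, on the log2 scale by 2.81 for Gdf15, 2.17 and 2.02 for Cdkn1a, 1.90 and 1.84 for Mki67, 1.84 for Birc5, 1.73 for Mmrn2, 1.55 for Ccna2, 1.54 for Spc25, 1.41 for Ncaph, 1.21 for Prc1, 1.16 for Aen and 1.12 for the chromosome 1 interval. Smaller differences were 1.09 for Ncapd2, 0.969 for Rnf169, 0.952 for Tacc3, 0.940 for Hmgb2 and 0.744 for the transcript XR_034760. Rnf169 and Hmgb2, which act at DNA breaks and on chromatin, changed by 0.58 each in lung, just short of the fold threshold, and by -0.39 and -0.36 in forestomach.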

How the results depend on the processing

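None of the 78 probes called at D1, the 18 called for lung minus forestomach and 10 further genes reversed its direction in an alternative. The 10 were Cyp1a1, Ahrr, Cyp1b1, Mdm2, Bbc3, Mcm3, Nr1d2, Per3, Plk2 and Arntl. Other lower values did change sign with median centring, Cebpb among them. List medians moved from -0.14 to 0.28 for Nrf2 targets and from -0.22 to 0.24 for heat shock genes. For club cells they moved from -0.28 to 0.10 and for ciliated cells from -0.24 to 0.03. Against 78 probes at D1 against D0, median centring gave 0, the Feature Extraction log ratio 160, slide as a block 130 and median centring with slide as a block, chosen after seeing the data, 306. Leaving out 1 lung gave 60 to 82. Between D3 and D1, where 0 were called, slide as a block gave 10, scan day as a block 6, an intensity trend with robust variances 2 and leaving out 1 lung 0 to 1 (1 without D3 mouse 18). D2 against D1 stayed at 0 in all alternatives run. Against 18 for lung minus forestomach, median centring gave 0, the Feature Extraction log ratio 50, slide as a block 48, scan day as a block 45, only the groups compared 9, the mouse as a replicate block 43 (fixed, 17 of the 18 among them) or 44 (random) and leaving out 1 array 12 to 36 (36 without D0 forestomach mouse 1). The cause of these moves was not tested. Background correction of mean pixel intensities was not run, as the array files hold medians. Of the 78 probes, 48 were called in every fit without 1 lung, 74 with slide as a block and 68 with the deposited table. Signal over background limits the faint division genes: 12 called probes were not above background on every D0 array.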
